A study of Homo sapiens with 6 samples.

Results

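The 35 genes described here encode the enzymes and carriers of glucose uptake, glycolysis, the pentose phosphate pathway, lactate production and transport, and the entry of pyruvate into mitochondria. They were chosen by gene symbol from pathway membership, with earlier results of these data known. All 35 were among the 25702 genes listed in the deposited table. RNA was sequenced from RMS13, an established human rhabdomyosarcoma cell line, which is a tumour line with skeletal muscle features. All cells were grown in RPMI medium with fetal bovine serum. One group carried a small interfering RNA (siRNA) labelled non-targeting (siNT2, 3 libraries), and the other an siRNA against the Hedgehog transcription factor GLI1 (siGLI1, 3 libraries), both at 72 h. The question the series states is how gene expression responds to GLI1 knockdown. Every library came from a single cell line. The siRNA sequences, the number of different siRNAs per target and an untransfected control are not described in the labels. Nothing in the labels says that the libraries of a group are separate cultures, and the p-values reflect no more than library-to-library spread, possibly of technical origin.

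Glycolysis breaks glucose down to pyruvate in the cytosol. Pyruvate is then either reduced to lactate by lactate dehydrogenase and exported with a proton by monocarboxylate transporters, or oxidised in mitochondria after the pyruvate dehydrogenase complex turns it into acetyl-CoA. The pentose phosphate pathway branches off at glucose 6-phosphate and supplies NADPH and ribose. Proliferating tumour cells, rhabdomyosarcoma among them, often use glucose at a high rate and export lactate even when oxygen is present.

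Recovered reads numbered 13673977 to 18947614 per library, with 19355 to 20292 genes detected. GLI1 itself had normalised counts of 11962, 17837 and 12774 in siNT2 and 579.9, 906 and 1274 in siGLI1, a log2 fold change of -4.0 (adjusted p = 0.000425). The summed count of 8 muscle and rhabdomyosarcoma markers was 46852 to 63508 in siNT2 and 55267 to 78039.7 in siGLI1. Of these 8, DES, CHRNA1 and NCAM1 were called, all 3 higher (37.5%, against 15.2% of all genes called in either direction). The other 5 were not called. Their log2 fold changes were -0.04 (MYOD1), -0.02 (CDH15), -0.01 (PAX3), 0.24 (MYOG) and 0.2 (CHRND). The summed count of 12 blood, endothelial, epithelial and liver markers was 143 to 162 in siNT2 and 204 to 232.0 in siGLI1. Of these, 4 had at most 3 reads in every library. Of the 4 tested, 1 was called (25.0%, against 15.2% of all genes). It was the endothelial marker PECAM1, which went from 11.0 ± 4.71 to 86.3 ± 4.54 (SD, n = 3 each, adjusted p = 0.00226). Without it the sums were 136 to 148 and 118 to 141.0. The DES call was lost without siNT2 replicate 1, and the CHRNA1 call without siNT2 replicate 1 or siGLI1 replicate 2. In bulk RNA, fewer cells of a type and less RNA per cell cannot be told apart. Libraries of the same group differed along transcript GC content: siNT2 replicate 2 and siGLI1 replicate 3 lay apart toward GC-rich genes, with rank correlations across 14438 genes between GC content and deviation from the group mean of 0.71 and 0.75, against -0.70 to -0.32 in the other 4 libraries. The 34 glucose metabolism genes tested had a median GC content of 55.1%, against 49.4% for all genes tested with a value, and 19 of the 35 were highest in both of these libraries within their groups.

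Values below are normalised read counts given as mean ± SD with n = 3 libraries per group. Fold changes subtract siNT2 from siGLI1 on log2(value + 1), with the standard error (SE) and adjusted p from limma over all 15622 genes with a mean of 10 or more. "Called" means an adjusted p under 0.05. Same-numbered libraries of the groups share the leading part of a code in the labels, whose meaning is not stated there. Where a replicate block for these numbers ends a call, its adjusted p is given. It did so for the markers DES (0.0594 with the block) and CHRNA1 (0.0665 with the block).

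The largest changes among the glucose metabolism genes were those of SLC16A3 and PKM, at the last steps of the glycolytic route. The lactate and pyruvate exporter gene SLC16A3 fell to 7.5% of its control mean, and the pyruvate kinase gene PKM, whose enzyme makes pyruvate, fell to 26.6%. LDHA, which encodes a lactate dehydrogenase subunit, and PDHA1, which encodes the catalytic alpha subunit of pyruvate dehydrogenase, fell to 73.3% and 67.0%. PFKFB3, which encodes an enzyme that makes the glycolytic activator fructose 2,6-bisphosphate, rose 1.58-fold. Of the 34 genes tested, these 5 were called, 1 higher and 4 lower, which is 14.7% against 15.2% of all genes tested (7.21% higher and 8.0% lower). The share called was thus near the background. Some genes that were not called stood lower relative to their control mean than LDHA and PDHA1, such as ENO2 (56.8%) and ALDOA (64.5%). The count test edgeR called 1 higher and 3 lower, without LDHA (7.57% and 7.68% of all genes), and DESeq2 called 1 and 6 (10.5% and 10.5%). In direction, 28 of the 34 (82.4%) had a log2 fold change below 0, against 50.8% of all genes, with a median of -0.23 against -0.01. After a correction for GC content the median was -0.13, and 3 were called higher and 7 lower, against 17.5% and 16.8% of the genes with a GC value. The groups did not overlap in 10 of the 34 (29.4%), against 36.2% of all genes.

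**Figure D1:**
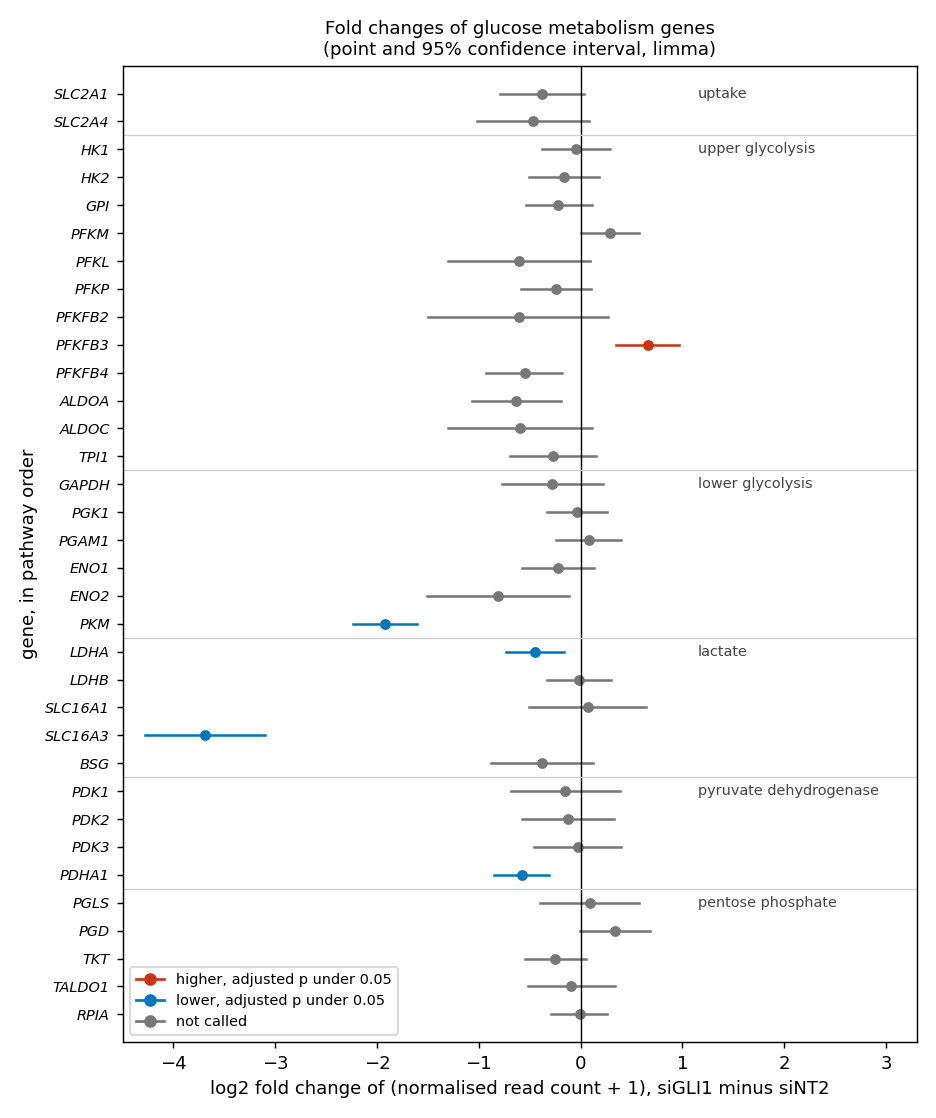
Log2 fold changes (siGLI1 minus siNT2, horizontal axis) of the 34 tested genes in pathway order, with points for the estimate and lines for the 95% confidence interval. SLC16A3 at -3.69 and PKM at -1.92 lie far to the left of the other genes, and PFKFB3 at 0.66 is the only gene called higher.

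Of the 2 glucose uptake genes tested, 0 were called by limma, edgeR or DESeq2, and 0 had an unadjusted p under 0.05. With 15.2% of all genes called by limma, 0 of 2 does not set these genes apart. SLC2A1, which encodes the widespread glucose transporter GLUT1, had 986 ± 161 in siNT2 and 755 ± 106 in siGLI1 (log2 fold change -0.38, 95% interval -0.79 to 0.03, adjusted p = 0.182). The insulin-responsive transporter gene SLC2A4 (GLUT4) was low, at 42.3 ± 8.23 and 30.0 ± 4.51. SLC2A3, the neuronal-type transporter GLUT3, ranged from 3.04 to 15.4 and fell under the minimum for testing. Per kilobase of transcript, SLC2A1 made up 94.6% ± 1.22 of the reads of these 3 transporter genes in siNT2 and 94.8% ± 0.873 in siGLI1. GLUT1 was therefore the main transcript among these 3 genes in both groups, but the share leaves out the other glucose transporter genes. Per kilobase, the transporter gene SLC2A6 stood at 283 ± 55.7 in siNT2 and 236 ± 48.1 in siGLI1. SLC2A1 stood at 269 ± 44.0 and 206 ± 28.8, so GLUT1 did not stand above SLC2A6 in either group. Beyond SLC2A1, SLC2A3 and SLC2A4, 8 other glucose transporter and hexokinase genes were tested and 1 was called. It was the intracellular transporter gene SLC2A8 (401 ± 45.3 to 199.9 ± 44.3, log2 fold change -1.02, adjusted p = 0.0155). The SLC2A8 call was lost without siNT2 replicate 1, without siGLI1 replicate 2 and with the replicate block (adjusted p = 0.0503).

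The first enzymes of the pathway showed no called change. HK1 and HK2, the hexokinases that trap glucose as glucose 6-phosphate, had log2 fold changes of -0.05 (95% interval -0.38 to 0.29) and -0.16 (-0.51 to 0.18), and the HK1 estimate turned to 0.02 after the GC correction. HK1 made up 57.9% ± 4.25 of the hexokinase reads per kilobase in siNT2 and 59.8% ± 6.0 in siGLI1. GPI, which converts glucose 6-phosphate to fructose 6-phosphate, had 5928 ± 695 and 5100.3 ± 541 (adjusted p = 0.338).

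At the phosphofructokinase step, which commits sugar to glycolysis, the muscle, liver and platelet isoenzyme genes had fold changes on both sides of 0, and none was called by limma, edgeR or DESeq2 without a GC correction. With that correction, PFKM was called higher (0.35, adjusted p = 0.0267) and PFKL lower (-0.36, adjusted p = 0.0355). The corrected fit called 17.5% of the genes with a GC value higher and 16.8% lower. With the replicate block added to the correction, PFKM was not called and PFKL was. PFKM, the muscle form, had counts of 1409, 1289 and 1509 in siNT2 and 1704, 1639 and 1783 in siGLI1. Every siGLI1 value of PFKM was above every siNT2 value, with a log2 fold change of 0.29 (SE 0.12, adjusted p = 0.159). PFKL, the liver form, had 2076, 3525 and 2055 in siNT2 and 1126, 1676 and 2256 in siGLI1, so the groups overlapped (log2 fold change -0.61, SE 0.30, adjusted p = 0.211). Its highest values were in the 2 libraries that lay apart along GC content, and its transcript has 63.5% GC; the fold change moved from -0.61 to -0.36 with the correction. PFKP had 866 ± 98.2 and 731 ± 70.8 (adjusted p = 0.304). Per kilobase, PFKM held 27.5% ± 6.09 of the phosphofructokinase reads in siNT2 and 39.2% ± 5.97 in siGLI1, and PFKL 53.1% ± 7.81 and 41.4% ± 7.27. The PFKM shares were 20.5% to 31.3% in siNT2 and 34.2% to 45.8% in siGLI1, without overlap, whereas the PFKL shares overlapped. With 3 libraries against 3, an exact two-sided permutation test of such a share cannot go below p = 0.1, so no test is given for shares and ratios.

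The bifunctional PFKFB enzymes make and break fructose 2,6-bisphosphate, the activator of phosphofructokinase, and the proportions of their transcripts differed between the groups. PFKFB3, which encodes the form with the strongest kinase side, had counts of 542, 468 and 498 in siNT2 and 855, 782 and 749.6 in siGLI1. Its means of 503 ± 37.7 and 796 ± 54.1 gave a log2 fold change of 0.66 (SE 0.13, 95% interval 0.35 to 0.97, limma adjusted p = 0.017, edgeR 0.0164). The call was lost (highest adjusted p = 0.0918) when siNT2 replicate 1, siNT2 replicate 3, siGLI1 replicate 1 or siGLI1 replicate 2 was left out, and with the replicate block (adjusted p = 0.0839). PFKFB4 had 163, 162 and 160.3 in siNT2 and 116, 96.1 and 119.5 in siGLI1. Its groups did not overlap either, but the value missed the threshold with limma (log2 fold change -0.55, SE 0.16, adjusted p = 0.0572) and edgeR (0.0626) and passed it with DESeq2 (0.0406). PFKFB2, the heart form, was low at 37.7 ± 11.5 and 25.4 ± 12.3 (adjusted p = 0.31). The ratio of PFKFB3 to PFKFB4 per kilobase was 2.65, 2.28 and 2.46 in siNT2 and 5.87, 6.45 and 4.97 in siGLI1. PFKFB3 accounted for 68.7% ± 1.73 of the reads of the 3 genes in siNT2 and 83.6% ± 1.07 in siGLI1, and the groups were separate for both measures.

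Aldolase splits fructose 1,6-bisphosphate into triose phosphates, and triose phosphate isomerase interconverts them. ALDOA supplied 99.5% of the aldolase reads per kilobase (ALDOA and ALDOC) in both groups. Its counts were 9203, 11174 and 7681 in siNT2 and 5371, 5352 and 7373 in siGLI1. The lowest siNT2 library was only just above the highest siGLI1 library, and the highest library of each group was one of the 2 that lay apart along GC content. The log2 fold change of ALDOA was -0.63 (SE 0.19, adjusted p = 0.0617 with limma, 0.0681 with edgeR and 0.0303 with DESeq2), and it was called after the GC correction (-0.41, adjusted p = 0.0171). ALDOC, the brain form, had 38.9 ± 11.7 and 25.2 ± 6.25, and TPI1 had 6826 ± 1138 and 5672 ± 1040, both with overlapping groups.

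In the energy-yielding middle steps, most genes differed by less than their libraries did. GAPDH, which encodes the enzyme that oxidises glyceraldehyde 3-phosphate, had 24972, 28168 and 19177 in siNT2 and 17901, 16432 and 25787 in siGLI1 (log2 fold change -0.28, 95% interval -0.77 to 0.22, adjusted p = 0.411). PGK1, an ATP-yielding kinase, had 2442 ± 212 and 2381 ± 159 (log2 fold change -0.04, 95% interval -0.33 to 0.26). PGAM1, the phosphoglycerate mutase gene, had 3120 ± 371 and 3284 ± 277 (0.08, -0.24 to 0.40). ENO1, the widespread enolase gene, had 15863 ± 2307 and 13544 ± 1601 (adjusted p = 0.356). ENO2, the neuronal enolase gene, was low, with 85.7, 83.2 and 51.8 in siNT2 and 30.2, 38.8 and 56.3 in siGLI1. The ENO2 groups overlapped by 1 library each (log2 fold change -0.81, SE 0.30, adjusted p = 0.111). The PGK1 and PGAM1 estimates changed sign under some omissions of a library, and their intervals span 0.

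PKM showed the largest change among the enzymes of the glycolytic route proper. Its counts were 25637, 27987 and 25975 in siNT2 and 6339, 6591 and 8214 in siGLI1. The lowest control library was more than any siGLI1 library by a wide margin, and within each group the libraries lay close together. The means of 26533 ± 1271 and 7048 ± 1018 differed 3.76-fold, a log2 fold change of -1.92 (SE 0.14, 95% interval -2.24 to -1.61, limma adjusted p = 0.000383, edgeR 0.000508). PKM was called in all 6 single-library omissions (highest adjusted p = 0.0061). Per kilobase, PKM ranked 2 among the 35 genes in siNT2 (9766 ± 468) and 7 in siGLI1 (2594 ± 375). Set against ENO1, which acts just before it, PKM per kilobase stood at a ratio of 1.35, 1.35 and 1.68 in siNT2 and 0.419, 0.465 and 0.462 in siGLI1. PKM produces the M1 and M2 pyruvate kinases by alternative use of a pair of exons, and gene-level counts do not separate them.

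**Figure D2:**
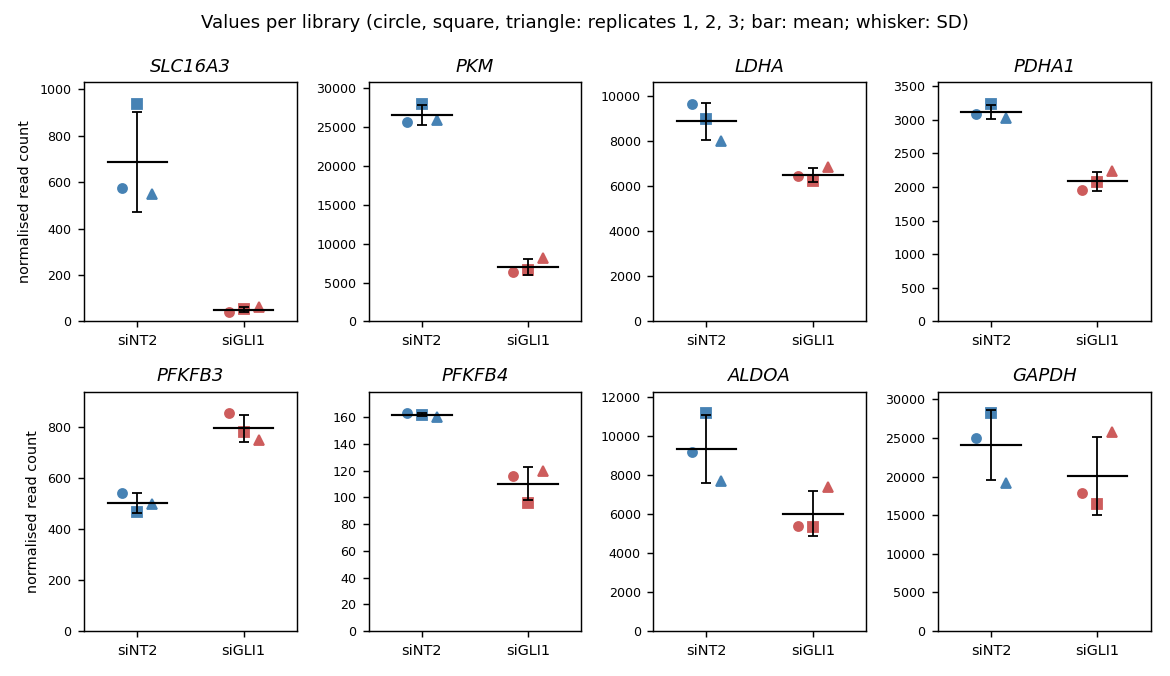
Normalised read count (vertical axis, from 0) in each library for 8 genes, with symbols for replicates 1 to 3, a bar for the mean and a whisker for the SD. The siNT2 and siGLI1 libraries are apart for SLC16A3, PKM, LDHA, PDHA1, PFKFB3, PFKFB4 and ALDOA, while GAPDH, from 16432 to 28168, overlaps between the groups.

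An siRNA can also act on transcripts that match a short stretch of it, so 3′ untranslated regions (UTRs) were searched for the heptamer GCACCTC, which stood out among genes lower in siGLI1 in an earlier analysis of these libraries. The heptamer was thus picked from these data, and its counts are no independent evidence. Of 13053 tested genes with an annotated 3′ UTR, 8.93% carried it. Genes with the heptamer were called lower in 213 of 1165 cases (18.3%, median log2 fold change -0.19) and genes without it in 843 of 11888 (7.09%, median 0.03). Of the 34 tested glucose metabolism genes, 4 carried it, namely PFKM, PFKFB2, ENO2 and PKM, with 1 site each. The sites are shown because PKM, the second largest decrease, is among them. Capitals mark the heptamer, and sequences are 5′ to 3′ on the transcript strand from GENCODE 29 (GRCh38).
PKM chr15:72199073-72199101, minus strand: ccactactgcaGCACCTCcaggcctgttg
PFKM chr12:48145932-48145960, plus strand: cacaaggctggGCACCTCtagtgctactg
PFKFB2 chr1:207077555-207077583, plus strand: tgtggggctgaGCACCTCtgggttgaatg
ENO2 chr12:6923658-6923686, plus strand: cattgaaatgaGCACCTCcattaaagtct
The 4 carriers had log2 fold changes of -1.92 (PKM), 0.29 (PFKM), -0.61 (PFKFB2) and -0.81 (ENO2), of which only that of PKM was called. SLC16A3, LDHA and PDHA1, the other genes that fell, carried 0 copies. Whether the heptamer plays a part in the PKM value was not tested.

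Lactate dehydrogenase, a tetramer of LDHA and LDHB subunits, interconverts pyruvate and lactate. LDHA had counts of 9629, 8973 and 7999 in siNT2 and 6446, 6226 and 6823 in siGLI1. All siGLI1 libraries were below all siNT2 libraries, with means of 8867 ± 820.1 and 6498 ± 302 and a log2 fold change of -0.45 (SE 0.12, 95% interval -0.73 to -0.16, adjusted p = 0.0467). This call lay at the threshold. It was absent with edgeR (adjusted p = 0.0536), with TMM scaling (0.0524), with no filter on low values (0.0699) and in 5 of the 6 single-library omissions (highest adjusted p = 0.193), the exception being the fit without siGLI1 replicate 3. With the replicate block the adjusted p was 0.148. LDHB had 10132, 10492 and 8816 in siNT2 and 8702, 9542 and 10897 in siGLI1. The LDHB groups overlapped, with means of 9813 ± 882 and 9714 ± 1107 and a log2 fold change of -0.02 (interval from -0.33 to 0.30, adjusted p = 0.947). The LDHA to LDHB ratio per kilobase was 0.605, 0.544 and 0.578 in siNT2 and 0.472, 0.415 and 0.399 in siGLI1, again without overlap. LDHA thus held 36.5% ± 1.22 of the lactate dehydrogenase reads per kilobase in siNT2 and 30.0% ± 1.85 in siGLI1.

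The largest change of all the glucose metabolism genes was in SLC16A3, which encodes MCT4, the low-affinity monocarboxylate transporter through which strongly glycolytic cells and fast muscle fibres release lactate. Its counts were 576, 936 and 547 in siNT2 and 41.0, 52.1 and 61.2 in siGLI1. The lowest control library was many times the highest siGLI1 library. The mean went from 687 ± 217 to 51.5 ± 10.1, 13.3-fold lower, with a log2 fold change of -3.69 (SE 0.25, 95% interval -4.28 to -3.10, limma adjusted p = 0.000353, edgeR 0.000555). It was called in all 6 single-library omissions (highest adjusted p = 0.00548), and the fold change was -3.42 after the GC correction. SLC16A3 overlaps CSNK1D in the gene annotation. CSNK1D had 4390.4 ± 451 and 4223 ± 598 (log2 fold change -0.06, adjusted p = 0.81), and whether reads were counted by strand is not stated in the labels.

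SLC16A1, which encodes MCT1, the widespread transporter that carries lactate in either direction, was not called. It had counts of 2859, 2149 and 3244 in siNT2 and 3758, 2984 and 2048 in siGLI1. The groups overlapped fully, with a log2 fold change of 0.07 (interval from -0.51 to 0.64, adjusted p = 0.876) that turned to -0.03 after the GC correction. Per kilobase, SLC16A3 made up 29.7%, 47.7% and 26.1% of the reads of the pair in siNT2 and 2.24%, 3.53% and 5.9% in siGLI1. MCT4 transcripts thus went from 34.5% ± 11.6 to 3.89% ± 1.86 of the pair. BSG, the chaperone basigin that brings both transporters to the cell surface, had 9422, 13838 and 9588 in siNT2 and 6757, 7868 and 10669.5 in siGLI1 (log2 fold change -0.38, adjusted p = 0.275). The BSG groups overlapped through siGLI1 replicate 3.

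Other monocarboxylate transporter genes changed in both directions. Of 8 tested genes of this family and its ancillary proteins, 2 were called higher and 1 lower (37.5%, against 15.2% of all genes). SLC16A6 went from 15.1 ± 4.28 to 43.8 ± 11.1 (log2 fold change 1.49, adjusted p = 0.0183), and omitting siNT2 replicate 1, siGLI1 replicate 1 or siGLI1 replicate 2 ended this call. SLC16A8, which encodes MCT3, the lactate exporter known from retinal pigment epithelium, had 37.3, 71.0 and 44.7 in siNT2 and 0.00, 2.04 and 3.95 in siGLI1. The siGLI1 values of SLC16A8 lie near the level of 3 reads, 2.963 to 3.24 in those libraries, so its fitted log2 fold change of -4.34 (adjusted p = 0.00394) depends on the pseudocount and became -2.54 with a pseudocount of 8. SLC16A7, which encodes the high-affinity transporter MCT2, stayed low at 10.1 ± 3.73 and 20.9 ± 12.5 (adjusted p = 0.245).

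**Figure D3:**
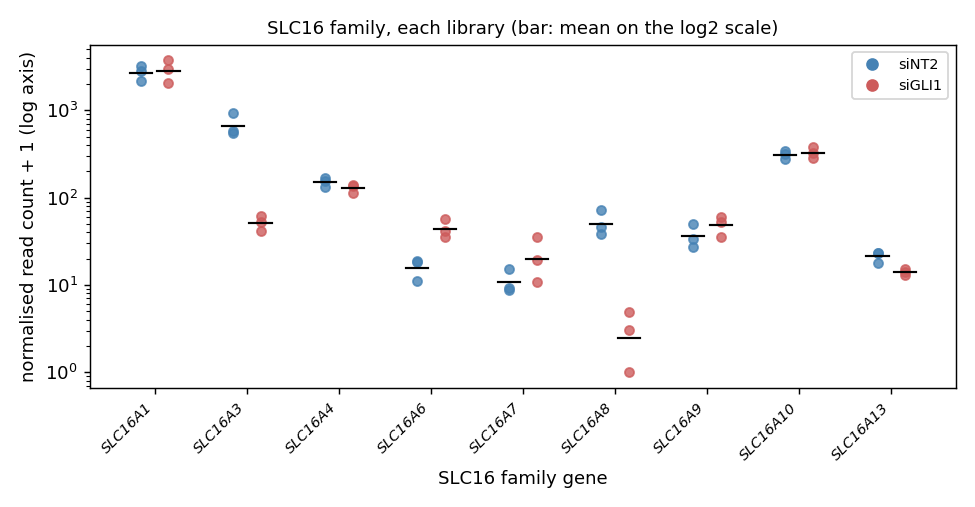
Normalised read count + 1 (logarithmic vertical axis) of 9 SLC16 genes in each library, with bars for the mean on the log2 scale. SLC16A3 and SLC16A8 drop in all 3 siGLI1 libraries, SLC16A6 rises, and SLC16A1 overlaps between the groups.

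Promoter windows, from 250 bases before to 50 bases after each RefSeq start (GRCh38.p14), were found for 31 of the 35 genes and numbered 60, since some genes have several starts. Windows were searched on both strands for the GLI motif GACCACCCA, for the hypoxia-inducible factor core ACGTG and for the MYC-type E-box CACGTG, which contains ACGTG. The GLI motif was in 0 of the 60 windows, and in 0.236% of 35116 promoter windows of all genes, so few matches are found at this length in any set. ACGTG was in 22 of 60 (36.7%) against 21.4% of all windows, and CACGTG in 8 of 60 (13.3%) against 7.26%. By gene, 18 of 31 had an ACGTG window, against 24.9% of all genes, and genes with more starts have more windows to match. Among the genes that changed, LDHA, SLC16A3 and PFKFB3 had it in 1 of their windows, and PKM and PDHA1 had no match to any of the 3 motifs. A match is a description of letters, not a bound site. The windows with a match of LDHA and SLC16A3 are shown because these are the lactate genes that fell, with that of PKM beside them as the other large decrease. Capitals mark ACGTG, read on either strand, and CACGTG.
LDHA chr11:18394313-18394612, plus strand: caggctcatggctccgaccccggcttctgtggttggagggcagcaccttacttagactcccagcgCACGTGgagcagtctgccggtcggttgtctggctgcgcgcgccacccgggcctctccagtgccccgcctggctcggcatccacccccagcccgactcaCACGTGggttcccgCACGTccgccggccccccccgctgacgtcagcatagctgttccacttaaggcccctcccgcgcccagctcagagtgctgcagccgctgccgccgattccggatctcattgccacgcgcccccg
SLC16A3 chr17:82228792-82229091, plus strand: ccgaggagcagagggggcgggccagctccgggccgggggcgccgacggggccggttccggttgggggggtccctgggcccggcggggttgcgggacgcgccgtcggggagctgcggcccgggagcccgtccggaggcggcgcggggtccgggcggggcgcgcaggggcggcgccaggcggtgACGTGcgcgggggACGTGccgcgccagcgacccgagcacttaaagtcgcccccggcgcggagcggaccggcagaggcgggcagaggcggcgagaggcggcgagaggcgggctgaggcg
PKM chr15:72231141-72231440, minus strand, with no match: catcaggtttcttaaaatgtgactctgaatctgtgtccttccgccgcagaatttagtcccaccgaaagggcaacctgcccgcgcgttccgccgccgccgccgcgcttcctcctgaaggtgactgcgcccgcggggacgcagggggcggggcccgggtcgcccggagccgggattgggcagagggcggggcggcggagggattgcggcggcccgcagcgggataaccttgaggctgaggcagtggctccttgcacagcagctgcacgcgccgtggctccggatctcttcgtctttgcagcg
The LDHA window holds 2 copies of CACGTG, and the SLC16A3 window holds ACGTG 2 times and no CACGTG.

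Of 19 tested hypoxia-responsive genes outside glycolysis, 3 were called higher and 1 lower (21.1%, against 15.2% of all genes), with a median log2 fold change of 0.10. STC2, which encodes a secreted glycoprotein, had 4788, 4465 and 4477 in siNT2 and 9205, 8959.6 and 9670 in siGLI1 (log2 fold change 1.02, adjusted p = 0.00173). P4HA2, a collagen prolyl hydroxylase gene, went from 1496 ± 184 to 3383 ± 242 (1.18, adjusted p = 0.00237). EGLN3, which encodes a prolyl hydroxylase that marks hypoxia-inducible factors for breakdown, went from 278 ± 61.2 to 783 ± 113 (1.5, adjusted p = 0.00386). The gene called lower was CA12, a carbonic anhydrase gene named after its values were seen, with 26.4 ± 2.73 and 2.43 ± 2.21 (adjusted p = 0.0123). Its siGLI1 values were 0.00 to 4.32, near 3 reads, and its call was lost without siNT2 replicate 1.

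Among 12 tested regulators of glycolytic gene expression, 1 was called higher and 2 lower (25.0%, against 15.2% of all genes). EPAS1, which encodes HIF-2 alpha, went from 763 ± 101 to 1211 ± 58.1 (log2 fold change 0.67, adjusted p = 0.0198). TXNIP, a glucose-responsive inhibitor of glucose uptake, went from 2657 ± 300.2 to 1595 ± 333 (-0.75, adjusted p = 0.0344). MLXIP, which encodes the glucose-sensing factor MondoA, known to activate TXNIP, went from 4723 ± 965 to 2640.2 ± 660.1 (-0.85, adjusted p = 0.0367). These 3 calls were lost without siNT2 replicate 1 and without siGLI1 replicate 2, among others, and held in 3, 3 and 1 of the 6 single-library omissions. With the replicate block their adjusted p-values were 0.0882, 0.0945 and 0.0791.

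At the mitochondrial entry of pyruvate, the enzyme's alpha subunit gene fell while its kinases showed no called change. PDHA1 had counts of 3080.1, 3231 and 3021 in siNT2 and 1948, 2070.2 and 2232 in siGLI1. The groups were well apart, with means of 3111 ± 108 and 2084 ± 142 and a log2 fold change of -0.58 (SE 0.12, 95% interval -0.85 to -0.31, limma adjusted p = 0.0175, edgeR 0.0196). The call was lost (highest adjusted p = 0.099) without siNT2 replicate 1, siNT2 replicate 3, siGLI1 replicate 1 or siGLI1 replicate 2, and with the replicate block (adjusted p = 0.0948). The kinases PDK1, PDK2 and PDK3 inactivate the complex by phosphorylation. PDK1 had 291, 208 and 299.8 in siNT2 and 289, 256 and 181 in siGLI1 (log2 fold change -0.15, adjusted p = 0.703). PDK2 had 155, 186 and 151 against 121, 153 and 179.8 (-0.12, adjusted p = 0.701). PDK3 had 598, 539.6 and 655 against 739, 556 and 486 (-0.03, adjusted p = 0.936). The groups overlapped for all 3 kinases, and each of these estimates changed sign in at least 1 alternative. PDK3 held 69.5% ± 0.822 of the kinase reads per kilobase in siNT2 and 70.9% ± 3.1 in siGLI1.

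Few other genes of the complex and the pyruvate carrier were called. Of 11 tested, 0 were called higher and 1 lower (9.09%, against 15.2% of all genes), with a median log2 fold change of 0.06. The 1 called was PDHA2, the intronless testis copy of PDHA1, which went from 172 ± 13.4 to 103 ± 9.86 (-0.73, adjusted p = 0.0235). PDHA2 stood at 5.52% ± 0.391 of PDHA1 in siNT2 and 4.93% ± 0.146 in siGLI1. Reads of such copies may be shared between the genes, so the PDHA2 value is uncertain. Its call was lost in 5 of the 6 single-library omissions, all but the one without siGLI1 replicate 3, and with the replicate block (adjusted p = 0.0994). With the GC correction 3 of the 11 were called, PDHA2 lower and PDHB (0.28, limma adjusted p = 0.0453) and DLD (0.28, adjusted p = 0.0381) higher. That correction called 17.5% of the genes with a GC value higher and 16.8% lower.

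Pentose phosphate genes among the 35 did not pass the test: 0 of 5 were called by limma, edgeR or DESeq2, 0 had an unadjusted p under 0.05, and the median log2 fold change was -0.01. Limma called 15.2% of all genes, so 0 of 5 does not set this branch apart. PGD, which encodes the NADPH-forming 6-phosphogluconate dehydrogenase, had 2807, 3067 and 2554 in siNT2 and 3145, 3401 and 4164 in siGLI1. Each siGLI1 library was above each siNT2 library (log2 fold change 0.34, SE 0.15, adjusted p = 0.164), and PGD was called after the GC correction (0.41, adjusted p = 0.0112). PGLS, the lactonase gene of the same branch, had 474 ± 71.4 and 509 ± 129. In the non-oxidative branch, the transketolase gene TKT had 4001 ± 356 and 3358 ± 258 (-0.25, 95% interval -0.55 to 0.05) and the transaldolase gene TALDO1 had 1630.1 ± 309 and 1521 ± 234 (-0.09, -0.52 to 0.34). RPIA, the ribose 5-phosphate isomerase gene, had 996 ± 52.8 and 985 ± 14.8 (-0.01, -0.29 to 0.26). Of 7 other tested genes of this pathway and of ribose use, 0 were called higher and 2 lower (28.6%, against 15.2% of all genes). H6PD, which encodes the dehydrogenase that starts the pathway inside the endoplasmic reticulum, had 474, 489.9 and 480.1 in siNT2 and 266, 314 and 320 in siGLI1 (-0.69, adjusted p = 0.0177). The H6PD call was lost without siNT2 replicate 1, siNT2 replicate 3, siGLI1 replicate 1 or siGLI1 replicate 2, and with the replicate block (adjusted p = 0.0853).

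Genes that join glucose metabolism from its sides were also counted. Of 14 other tested glycolytic and gluconeogenic enzyme genes, 2 were called higher and 1 lower (21.4%, against 15.2% of all genes). MINPP1, an inositol phosphatase gene whose product also acts on 2,3-bisphosphoglycerate, rose from 190 ± 44.6 to 408 ± 93.0 (log2 fold change 1.1, adjusted p = 0.0252). PCK2, the mitochondrial phosphoenolpyruvate carboxykinase gene, fell from 714 ± 99.8 to 473 ± 37.6 (-0.59, adjusted p = 0.0418). The MINPP1 and PCK2 calls held in 2 and 1 of the 6 single-library omissions. MINPP1 was lost without siNT2 replicate 1 or 2 or siGLI1 replicate 1 or 2, and PCK2 in all but the fit without siGLI1 replicate 3. PCK2 was also lost with the GC correction (-0.37, adjusted p = 0.0594). With the replicate block the adjusted p was 0.073 for MINPP1 and 0.131 for PCK2.

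Of 16 tested genes of glycogen synthesis and breakdown, 3 were called higher and 1 lower (25.0%, against 15.2% of all genes). The median log2 fold change was -0.04. PGM1, the phosphoglucomutase gene that links glucose 6-phosphate to glycogen, had 1328, 1052 and 1411 in siNT2 and 2463, 2109 and 2193 in siGLI1 (0.84, SE 0.15, adjusted p = 0.0118). PGM2L1, which encodes a glucose 1,6-bisphosphate synthase, had 433, 361 and 477 in siNT2 and 1274, 1292 and 818 in siGLI1 (1.39, SE 0.21, adjusted p = 0.00644). For both genes the siGLI1 values all exceeded the siNT2 values, and PGM2L1 was called in all 6 single-library omissions, while the PGM1 call ended on omitting siNT2 replicate 1 or siGLI1 replicate 2. The glycogenin genes, whose products prime glycogen chains, went opposite ways. GYG2 fell from 443 ± 21.2 to 263 ± 32.5 (-0.76, adjusted p = 0.0163), lost without siNT2 replicate 1, siNT2 replicate 3 or siGLI1 replicate 2 and with the replicate block (adjusted p = 0.0692). GYG1, named after its values were seen, rose from 477 ± 6.79 to 650.5 ± 22.8 (0.45, adjusted p = 0.0479) and was lost in all 6 such fits and with the replicate block (adjusted p = 0.191).

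The muscle-type isoenzyme genes of glucose metabolism were listed because RMS13 has muscle features. Of 8 tested, 0 were called by limma or edgeR and 1 by DESeq2, and 2 had an unadjusted p under 0.05, with a median log2 fold change of -0.13. Of all genes, limma called 15.2%. This list shares SLC2A4 and PFKM with the 35 genes. The beta enolase ENO3 had 857 ± 184 and 1005 ± 251 (adjusted p = 0.558), and per kilobase it made up 7.61% ± 0.558 of enolase reads in siNT2 and 10.2% ± 1.83 in siGLI1, with overlapping groups.

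Levels per kilobase of transcript spanned several orders of magnitude across the route. GAPDH stood highest in both groups (12856 ± 2431 in siNT2 and 10688 ± 2683 in siGLI1). PKM, ENO1, LDHB and BSG followed in siNT2, and LDHB, ENO1, BSG and TPI1 in siGLI1. ENO1 at 6765 ± 984, LDHB at 6380.5 ± 574 and BSG at 5538 ± 1266 in siNT2 were within their spread of each other, whereas PKM at 9766 ± 468 was above ENO1 in each library. At the low end lay SLC2A3, PFKFB2 and SLC2A4, with 2.59 ± 1.63, 5.32 ± 1.62 and 12.3 ± 2.4 in siNT2. SLC16A3 went from rank 22 of 35 (329 ± 104) to rank 30 (24.7 ± 4.85), and PFKFB3 from rank 27 (111 ± 8.33) to rank 26 (176 ± 12).

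**Figure D4:**
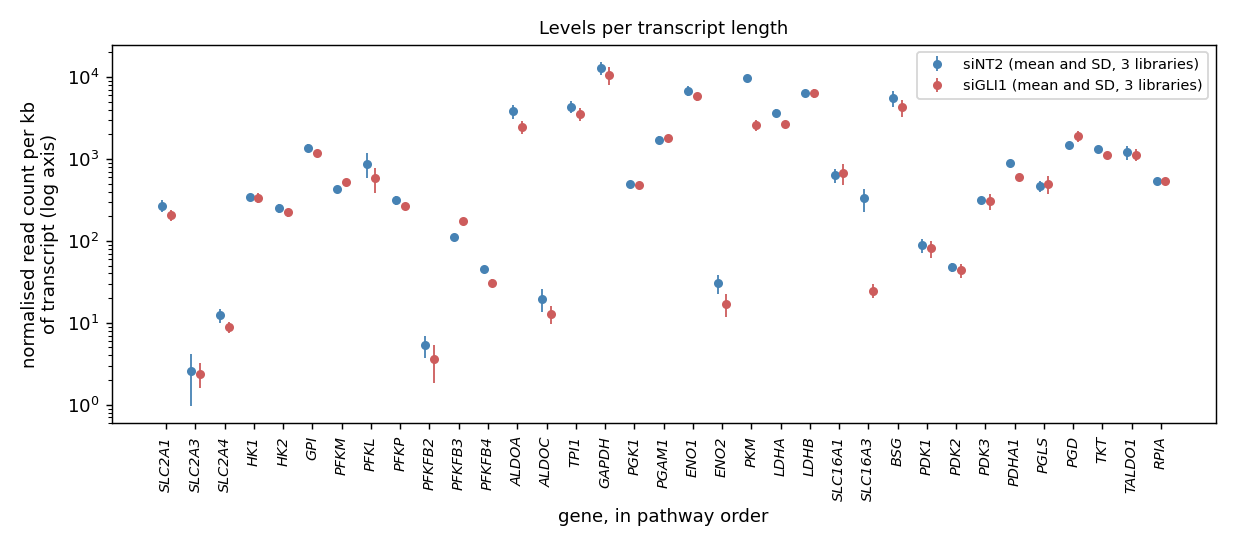
Normalised read count per kilobase of transcript (logarithmic vertical axis) for the 35 genes in pathway order, as mean and SD of 3 libraries per group. Most pairs of points lie close together, from 2.59 for SLC2A3 to 12856 for GAPDH in siNT2, and the widest gap is that of SLC16A3, followed by PKM.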

How the data were processed

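The authors' deposited table holds 1 normalised signal per gene and library, which is the read count divided by a library size factor, not raw counts. The submitters' processing notes name the build hg19 and the tools Trim Galore (0.4.5), featureCounts (Subread, 1.6.4), Bowtie2 (2.3.3.1) and DESeq2 (2.11.40.6). Strand and multi-mapping settings are not stated there. Dividing by the value of 1 read recovered whole reads for 100.0% of values (within 0.01 reads). Symbols were found for 23696 of 25702 Entrez IDs (92.2%) in RefSeq tables.

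The test was limma 3.58.1 (lmFit, eBayes with trend, two-sided; R 4.3.3) on log2(value + 1), for genes with a mean of 10 or more, with group as the only term and Benjamini-Hochberg adjustment over 15622 genes at 0.05. Intervals are 95% confidence intervals. On the log2(value + 1) scale the change of low genes is understated. Alternatives were edgeR 4.0.16 and DESeq2 1.42.0 on recovered reads (edgeR called 1182 higher and 1200 lower, DESeq2 1645 and 1634), TMM scaling, pseudocounts of 0.5 and 8, other filters, a GC correction (lowess, span 0.3), library weights, a replicate block and leaving out libraries. Transcript lengths, GC content and 3′ UTRs came from GENCODE 29. On simulated counts (15514 genes, 200 changed, dispersion 0.03), 91.0% of 2-fold and 100% of 4-fold changes were recovered, and 13 unchanged genes were called. The simulation used a single dispersion for all genes and no GC trend, and no low genes were among the changed ones. Its rates therefore need not hold for the real libraries, which differed along GC content. Pairs of libraries within a group differed beyond counting noise (chi-square per degree of freedom 10.4 to 66.1), so all 6 were counted.

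All 35 genes are named. Values per library are given for the called genes among the 35 and for genes of the same step, except PFKFB2. Other genes are given by library or as means. Of each other list, up to 3 called genes with the smallest p are named, and GLI1 as the check of the knockdown. Some further genes of these lists are named beside them. Genes and lists were chosen with earlier results of these data known. A few of the genes taken by this rule are not reported here.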

Additional observations from a re-analysis of the deposited data

How the results depend on the processing

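Same-numbered libraries share the leading part of a code in the labels, which do not say that it marks a shared culture, batch or day. Correlations of deviations from the group means between same-numbered libraries were 0.49, -0.11 and -0.61, and these deviations follow the GC trend, so pairing was not settled. With a replicate block, 462 genes were called higher and 508 lower, and 0 and 2 of the glucose metabolism genes, PKM and SLC16A3. With the block and the GC correction the counts were 2008 and 1933 over all genes and 3 higher and 5 lower among the 35, with LDHA not called. The GC correction alone gave 2520 and 2422 over all genes and 3 and 7 among the 35, adding PFKM and PGD higher and PFKL, ALDOA and ENO2 lower. Library weights (gene by gene, because the default estimate did not converge) gave 4059 and 4215, and 3 and 16. Without siNT2 replicate 2 and siGLI1 replicate 3, chosen after seeing the data because they lay apart along GC content, there were 2236 and 2356, and 9 of the 35 lower. Leaving out 1 library gave 283 to 1562 higher and 358 to 1705 lower over all genes, and 0 to 1 and 2 to 7 among the 35; the fewest calls came without siGLI1 replicate 2. PKM and SLC16A3 were called in every fit run. Of 1019 values over 57 named genes, 867 kept direction and side of the threshold, 84 lost a call, 33 gained one and 35 changed sign, 0 of these 35 of a called gene. Those that changed sign were HK1 (0.02), PDK2 (0.07), TALDO1 (0.05) and SLC16A1 (-0.03) with the GC correction, with or without the block; PFKFB2 (0.10), PGAM1 (-0.01) and PGLS (-0.11) with library weights; PDK3 with edgeR and DESeq2 (0.00); and PDK3 (0.03), PGLS (-0.02) and RPIA (0.02) without both libraries. Without 1 library, the ranges of the 11 genes that changed sign were PGK1 -0.11 to 0.02, LDHB -0.10 to 0.06, RPIA -0.06 to 0.01, PGAM1 -0.02 to 0.15, SLC16A1 -0.13 to 0.30, TALDO1 -0.24 to 0.04, PDK3 -0.20 to 0.11, PGLS -0.11 to 0.19, HK1 -0.16 to 0.04, PDK2 -0.26 to 0.03, PDK1 -0.31 to 0.05. The cause was not tested. Counts near 3 reads limit SLC16A8 and CA12.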

Other observations

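GAPDH, often used as a reference gene, differed 1.47-fold between the highest and lowest siNT2 libraries, 1.57-fold between the siGLI1 libraries and 1.71-fold over all 6. The ratio of PKM to GAPDH per kilobase was 0.708, 0.686 and 0.935 in siNT2 and 0.244, 0.277 and 0.22 in siGLI1, so PKM was lower in siGLI1 relative to GAPDH too. PGAM4, an intronless copy of PGAM1 that could share reads with it, stood at 13.1% ± 1.24 of the PGAM1 count in siNT2 and 13.0% ± 1.21 in siGLI1.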
